A study of Mus musculus with 6 samples.

Results

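The genes described here build the machinery that takes a secretory protein into the endoplasmic reticulum (ER), folds it there and ships it to the Golgi. Members were the non-control probes whose gene name, or whose symbol through the RefSeq accession, belongs to a fixed set of families: the signal recognition particle and its receptor, the Sec61 translocon, the translocon-associated proteins, signal peptidase, part of oligosaccharyltransferase, calnexin, calreticulin and the Pdia enzymes, the COPII and COPI coats and the Sec22 proteins. That rule took 104 probes for 54 genes out of 41174 probes, and 97 probes for 53 genes were bright enough to test. The untested gene is Copg2as2, an antisense transcript of Copg2 that the name pattern also caught. For each gene the matched probe with the highest mean intensity over the 6 arrays stands for the gene. The rule uses names and no measured difference, although it was set with earlier results of these data known.

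The study measured ventral prostate RNA of FVB mice on 6 two-colour Agilent whole mouse genome arrays. The green dye (Cy3) always carried RNA of young wild type mice aged 2.5 months. In red (Cy5) were 3 kinds of sample. The fl26 line carries a 15-LOX2 transgene (a lipoxygenase) and the svb9 line its splice variant b, both at 2.5 months of age, and the third kind came from old wild type mice aged 15 months. Each of these 3 groups has 2 arrays. Each transgene is represented by 1 line, and the promoter that drives it is not given in the sources used here. The sample labels speak of pools of 3 mice and the design text of combined lobes of 6 mice. Dyes were not swapped, so dye and group cannot be told apart when a group is set against the green reference. A fixed dye effect drops out between red groups, but one that varies with signal need not. P-values here rest on duplicate pools and on a reference channel whose own spread is not measured.

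Proteins bound for secretion carry a signal peptide that the signal recognition particle reads as it leaves the ribosome, and its receptor docks the complex at the Sec61 channel. Signal peptidase cuts the signal off, oligosaccharyltransferase adds N-glycans, and calnexin, calreticulin and the protein disulfide isomerases hold and oxidise the chain until it folds. COPII coats then bud vesicles from the ER towards the Golgi and COPI coats return material the other way. The ventral prostate lobe of the mouse is a secretory gland whose luminal cells depend on this route.

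Several of these genes are textbook targets of the unfolded protein response, so their promoters were searched for the ER stress response element (CCAAT and CCACG with 9 bases of any kind between them), its variant form (ATTGG and CCACG with 1 base between them), the element TGACGTGG known from ATF6 and XBP1 binding, and the shorter ACGTGT. Both strands were searched over the 300 bases of RefSeq's promoter table (GRCm38.p6) that run from 250 before to 50 after a gene's start. The first 3 motifs share the letters CCACG, which the third holds on its opposite strand, so a single site can count for more than 1 of them. The table held 47 of the 54 genes, with 50 promoters. The first motif stood in 4% of the member promoters (Calr and Canx) and in 0.119% of all 32851 promoters. Its variant stood in none of the 50 and in 0.0365% of all. TGACGTGG stood in 8% (Copb1, Copb2, Sec23a and Sec24d) against 0.676% of all, and ACGTGT in 8% (Cope, Magt1, Sec24a and Srpr) against 5.15%.

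Printed here are the 250 bases before the start of 5 genes: the lectin chaperones Calr and Canx, which share the long element, Copb1 and Sec24d, which share TGACGTGG, and Magt1, the member with the smallest p-value of all comparisons. Capitals mark the fixed bases of a match. The windows are chr8:84846932-84847181 (minus strand), chr11:50325674-50325923 (minus), chr7:114254681-114254930 (minus), chr3:123267246-123267495 (plus) and chrX:106011803-106012052 (minus), all GRCm38.p6.
Calr: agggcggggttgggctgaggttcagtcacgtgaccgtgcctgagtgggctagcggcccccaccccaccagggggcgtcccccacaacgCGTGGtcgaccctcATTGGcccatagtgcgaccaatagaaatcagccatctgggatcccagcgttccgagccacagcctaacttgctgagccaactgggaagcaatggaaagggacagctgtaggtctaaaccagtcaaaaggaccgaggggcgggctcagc
Canx: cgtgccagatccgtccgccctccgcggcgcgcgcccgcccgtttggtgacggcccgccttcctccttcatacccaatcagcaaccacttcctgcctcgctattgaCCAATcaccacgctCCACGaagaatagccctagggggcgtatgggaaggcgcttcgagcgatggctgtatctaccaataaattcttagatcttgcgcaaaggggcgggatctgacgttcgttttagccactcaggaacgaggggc
Copb1: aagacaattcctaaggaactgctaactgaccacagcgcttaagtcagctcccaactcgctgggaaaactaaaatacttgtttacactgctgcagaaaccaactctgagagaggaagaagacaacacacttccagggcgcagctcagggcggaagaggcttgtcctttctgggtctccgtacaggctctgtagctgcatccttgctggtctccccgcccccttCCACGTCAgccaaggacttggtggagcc
Sec24d: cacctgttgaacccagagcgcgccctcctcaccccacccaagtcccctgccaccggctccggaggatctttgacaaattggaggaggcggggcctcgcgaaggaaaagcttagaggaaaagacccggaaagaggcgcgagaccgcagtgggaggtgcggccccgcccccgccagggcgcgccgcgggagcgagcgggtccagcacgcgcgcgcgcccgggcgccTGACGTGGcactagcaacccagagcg
Magt1: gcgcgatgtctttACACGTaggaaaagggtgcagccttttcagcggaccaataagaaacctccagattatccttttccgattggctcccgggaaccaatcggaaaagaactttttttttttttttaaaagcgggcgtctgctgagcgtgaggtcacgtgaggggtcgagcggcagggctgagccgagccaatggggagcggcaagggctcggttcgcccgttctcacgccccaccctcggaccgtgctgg
A match describes letters in this window and not a bound site. The element begins 162 bases before the start in Calr, where it lies on the opposite strand, and 145 bases before it in Canx. TGACGTGG begins 28 bases before the start in Copb1, on the opposite strand, and 26 before it in Sec24d.

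The members were bright in the young wild type channel. Green signal was well above background for all 53 on every array, with a median between 1124 and 1528 against 105 to 143 over all tested genes, and no member was saturated. Red signal was far less even. Its median over members was 4162 and 3855 on array 1 of fl26 and svb9, 1038 and 614 on their second arrays, and 113 and 534 on the old arrays, with a red background between 78 and 82. On the first old array 36 of 53 members were well above background in red (67.9%, against 14.1% of all tested genes), and on the other 5 arrays 51 to 53 were.

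Many of the brightest members have no old value. The scanner software marked the red spot as an outlier for 12 members on the first old array and 17 on the second. It did so for 3 on the second svb9 array and for none elsewhere, and such spots were left out. Of all probes with a green signal over 5000, 86.8% carried this mark on the first old array and 43.2% on the second, against 0.483% to 9.18% on the other 4. As a result 30 members have 2 old values, 17 have 1, and Sec61b, Pdia3, Rpn1, Sec11a, Sec31a and Ssr4 have none. With such spots kept, the ratios of the 12 marked members on the first old array were all above 0 (median log2 ratio 0.72), and those of the 41 unmarked members had a median of -0.12. On the second old array 13 of the 17 marked members were above 0 (median 0.12), against 6 of the 36 unmarked (median -0.17). Keeping such spots refits the loess curve, so ratios of unmarked spots moved as well, and 7 of the 47 members with an old mean changed sign: Cope, Sec22b, Sec23b and Sec23ip from above to below 0, and Sec11c, Srp72 and Srp9 from below to above it.

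Old values of the dimmer members on the first array rest on red signal that was not well above background. That holds for Copb1, Magt1, Sec13, Sec22a, Sec22c, Sec23a, Sec24a, Sec24b, Sec24d, Sec61a2, Sec62, Sec63, Srp19, Srp68, Srp72, Srprb and Tram2.

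**Figure D1:**
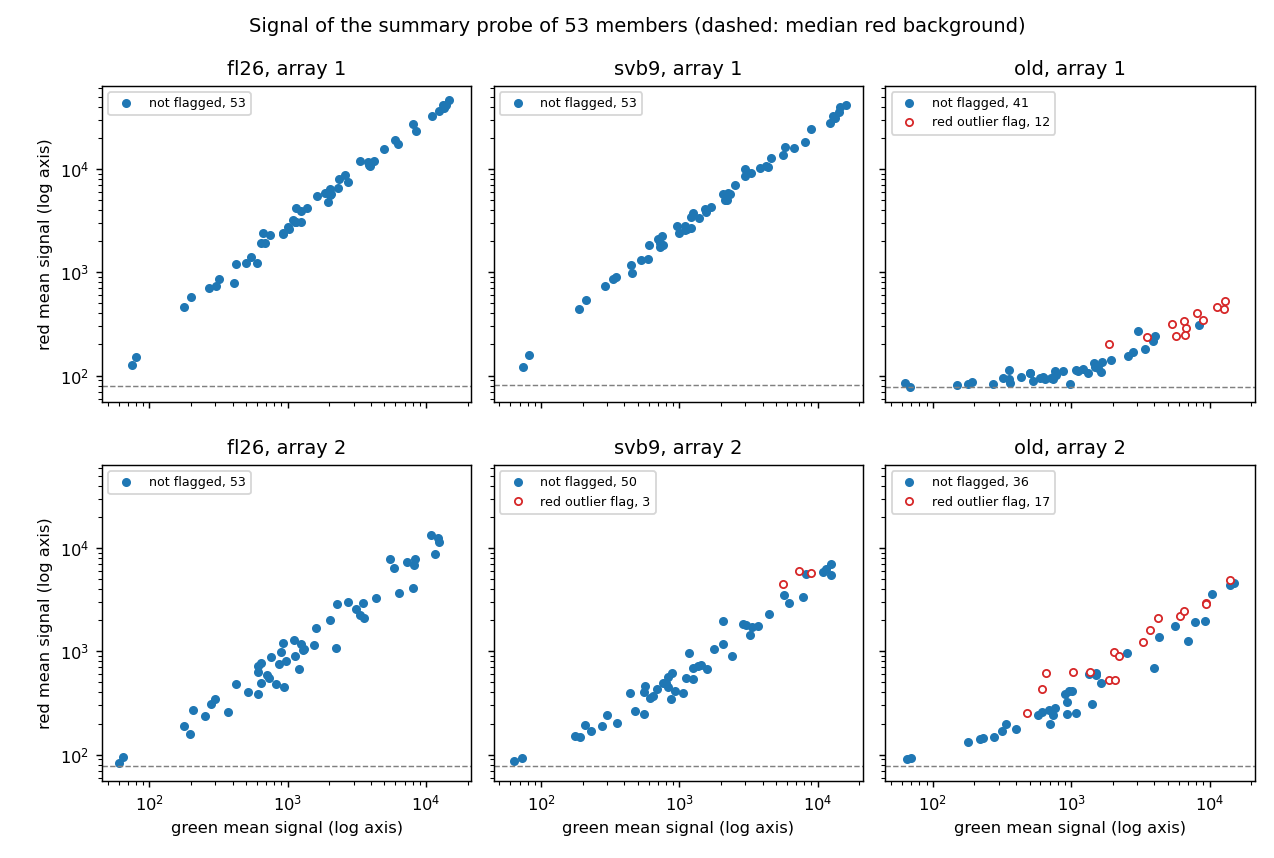
Mean red signal against mean green signal of the 53 members on each array, both on log axes, with red outlier spots as open circles and the median red background as a dashed line. On the first old array most members lie close to the dashed line, and the open circles are mostly the brightest members.

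Luminal epithelial markers were present, as the tissue label requires: all 12 listed were tested, and 11 or 12 of them were well above background in red on each array. Their median log2 ratio was -0.14 and 0.25 on the fl26 arrays, 0.05 and 0.05 on the svb9 arrays, and 0.48 and 0.28 on the old arrays. Ventral prostate secretory products (8 of 9 tested) had medians of -0.84 and 0.32, -0.82 and 0.33, and 1.03 and 0.84 in the same order. Among them Sbp, Spink1 and Defb50 shared 1 ratio on the first fl26 array (-1.61) and on the first svb9 array (-1.49). Sbp and Spink1 were also equal on each second array, and read 8.87 and 7.05 on the first old array. Whether such spots were saturated was not tested, so no change in secretory output is read from these medians. Markers of B and plasma cells, which are rich in ER (8 of 11 tested), had medians between 0.00 and 0.03, with 0 or 1 of 8 well above background in red on the old arrays. Fibroblast markers stood at 0.74 on the first fl26 array and between -0.31 and 0.24 on the other 5. Medians of macrophage (0.48), basal epithelial (0.44) and endothelial (0.38) markers were also highest on that array. On the other 5 they lay between -0.03 and 0.09, -0.21 and 0.10, and -0.07 and 0.03. Smooth muscle markers stood at 0.08 on the first fl26 array. In bulk tissue, fewer cells of a type and less RNA per cell cannot be told apart, and the part of cell mixture in the member values was not tested.

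No member passed an adjusted p of 0.05 in any of the 5 comparisons. In fl26 against young wild type 0 of 53 were called, where limma called 0.0503% of all tested probes. In svb9 it was 0 of 53 against 0% of probes, in old wild type 0 of 47 against 0%, in fl26 against svb9 0 of 53 against 0%, and in old wild type against the mean of both young transgenic groups 0 of 47 against 0%. At an unadjusted p under 0.05 limma counted 6 members in fl26 (11.3%, against 11.4% of all tested genes), 3 in svb9 (5.66% against 5.07%), 9 in old (19.1% against 12.6%), 0 between fl26 and svb9 (0% against 2.47%) and 7 in old against young transgenic (14.9% against 8.66%). The shares in both young lines lie next to those of all genes. Of the members counted in old, Canx, Tram1, Srp14, Copg1 and Ssr3 rest on 1 old array. So do Canx, Tram1, Sec13 and Srp54a among those counted in old against young transgenic. Both old arrays gave a value for 30 of 47 members, against 18529 of 19813 tested genes. The old shares are therefore not alike, and no excess is read from them.

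The set as a whole sat near 0. Its median log2 ratio was 0.04 in fl26 (29 members above 0, 24 below), -0.02 in svb9 (23 and 30) and -0.06 in old wild type (17 and 30), where medians over all tested genes were 0.00, 0.00 and -0.01. The median was 0.03 for fl26 against svb9 and 0.02 for old against young transgenic. These small values depend on the loess normalization, which follows the ratio along the signal: with each array only centred on its median, the member medians were 0.34, 0.01 and -2.30 for the 3 groups and those of all tested probes 0.10, 0.01 and -0.38. No direction is therefore read from the medians.

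The 2 arrays of a group often disagreed about a member. Of members with 2 values, 15 were above 0 and 12 below on both fl26 arrays (28.3% and 22.6% of 53, against 28.5% and 25.7% of all genes). In svb9 13 were above and 17 below on both (26% and 34% of 50, against 29.1% and 27.3%), and in old wild type 5 and 10 (16.7% and 33.3% of 30, against 25.6% and 32.7%). The median difference between the 2 arrays was 0.30 in fl26, 0.18 in svb9 and 0.26 in old on the log2 scale for members, and 0.17, 0.13 and 0.16 for all genes. Pearson's r between the 2 arrays over these members was 0.01 in fl26, 0.29 in svb9 and 0.30 in old, as a description over genes that share arrays.

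**Figure D2:**
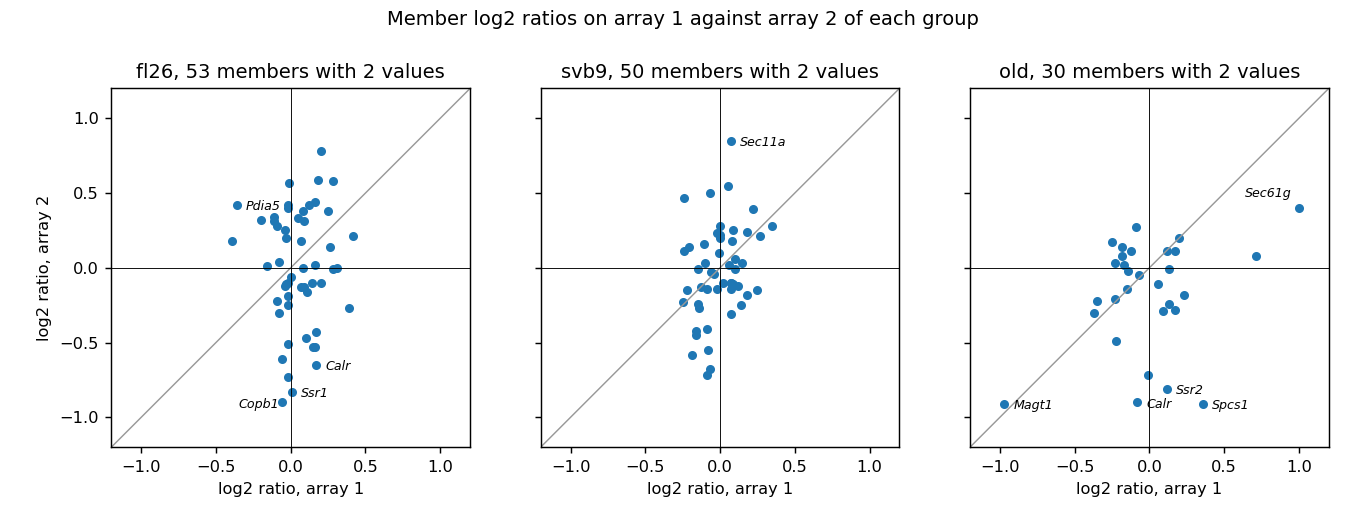
log2 ratio of each member on array 1 (horizontal) against array 2 (vertical) of its group, with a line of equality and the members that differ most, or lie far out on both, named. In fl26 and svb9 the points spread vertically rather than along the line, and in the old group Magt1 lies on the line at about -0.94.

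The signal recognition particle is made of an RNA and proteins that pause translation (Srp9 and Srp14), bind the signal peptide (Srp54) or hold the particle together (Srp19, Srp68 and Srp72), and Srpr and Srprb form its receptor. In fl26, Srp19 read 0.18 and 0.59 on the 2 arrays, a mean of 0.38 ± 0.12 (SE, n = 2; limma, adjusted p = 0.368). Srp9 read -0.02 and -0.73, a mean of -0.37 ± 0.17 (adjusted p = 0.538). A second Srp9 probe, also bright, read 0.23 and -0.16, and with the mean of both probes the fl26 value of Srp9 was -0.17. The group's median in fl26 was 0.01, with 4 members above 0 and 4 below.

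In svb9 the same 8 genes had a median of -0.01, from -0.24 (Srp9) to 0.30 (Srp54a). Srp9 read -0.25 and -0.23 there and 0.49 on the second array by its other probe (-0.12 on the first), and Srp19 read 0.18 and 0.24. Srp54a has near-identical gene copies, so its probe may read more than 1 gene. In old wild type all 8 means lay below 0, from -0.71 (Srp14) to -0.02, with a median of -0.21. None was called (smallest adjusted p = 0.377), 4 of the 8 rest on 1 old array, and none of the other 4 had the same sign on both arrays. With outlier spots kept the old means of Srp72 and Srp9 were above 0, at 0.09 and 0.12, and the second Srp9 probe read 0.44 on the second old array. Srp14, the largest, read 0.16 and -0.53 in fl26, 0.07 and -0.10 in svb9, and -0.71 on the second old array alone.

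The translocon is a channel of Sec61 alpha, beta and gamma subunits, helped by Sec62 and Sec63 and by the Tram proteins. Sec61g, the gamma subunit, read -0.01 and 0.57 in fl26, -0.11 and 0.16 in svb9, and 1.0 and 0.40 in old wild type. Both old values were above 0, and the higher of them was above every young value, while the lower old value was below the second fl26 array. The old mean was 0.70 ± 0.19 (1.63-fold, adjusted p = 0.257). With outlier spots kept it was 0.20, and with the software's own ratios 0.09.

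Sec62 read -0.06 and -0.61 in fl26, -0.07 and -0.68 in svb9, and -0.35 and -0.22 in old wild type. All 6 values were below 0, and the second fl26 and svb9 arrays were the lowest. A dimmer Sec62 probe that the member rule does not match read 0.19 and 0.10, 0.07 and 0.13, and 0.12 and -0.16, above 0 on 5 of 6 arrays. The means of the member probe were -0.34 ± 0.18 (adjusted p = 0.584), -0.38 ± 0.18 (0.98) and -0.29 ± 0.18 (0.588). Its partner Sec63 went the other way in fl26, with 0.42 and 0.21 (mean 0.32 ± 0.11, adjusted p = 0.44), and read 0.25 and -0.15 in svb9 and -0.15 and -0.14 in old.

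Sec61b, the beta subunit, was flat where it could be read: -0.03 and 0.20 in fl26 and -0.15 on the first svb9 array. Its red spot was marked on the second svb9 array and on both old arrays, where its red signals were 343 and 2882. With such spots kept the old values were 0.50 and -0.15, on either side of 0. Tram1 read 0.94 on the first old array and had no value on the second, where the marked spot gave 0.06 against 0.47 on the first with outliers kept. Its other 2 probes read 0.44 and 0.73 on the first old array. On the second old array the former read -0.12, and the latter had a marked spot that gave 0.23 when kept. Sec61a2 and Tram2 were not well above background in red on either old array.

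The translocon-associated protein complex has 4 subunits, encoded by Ssr1 to Ssr4, and helps certain signal peptides open the channel. The brightest Ssr3 probe varied little between arrays. It read 0.25 and 0.38 in fl26, 0.35 and 0.28 in svb9, and 0.36 on the first old array, so the 5 values of that probe were above 0 within a narrow range. With outlier spots kept its old values were 0.03 and 0.01. The means were 0.31 ± 0.08 in fl26 (1.24-fold, adjusted p = 0.327), 0.31 ± 0.08 in svb9 (0.98) and 0.36 ± 0.11 in old (1 array, 0.349). Both young lines read alike against the green reference, so dye and group cannot be told apart here, and fl26 minus svb9 was 0.00 ± 0.11. The dimmer Ssr3 probes differed from it. One read 0.02 and 0.23 in fl26, -0.03 and -0.23 in svb9, and -0.43 and -0.31 in old. The other read 0.21 and -0.41, 0.11 and 0.06, and -0.04 and -0.35 in the same order.

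Ssr4 read 0.20 and 0.78 in fl26 and 0.00 and 0.28 in svb9, and its spots were marked on both old arrays. The fl26 mean of 0.49 ± 0.16 (1.41-fold, adjusted p = 0.418) was the largest of any member there, and the second probe of Ssr4 gave 0.11 and 0.21. Ssr1 read 0.01 and -0.83 in fl26, -0.08 and -0.55 in svb9 and -0.11 on the first old array. Its value was near 0 on each first array and clearly below 0 on the second arrays. Ssr2 read -0.09 and -0.22, -0.13 and -0.13, and 0.12 and -0.81 in the same order. The 4 subunits thus stood on both sides of 0 in fl26 and svb9. In old, where Ssr4 had no value, only Ssr3 had a mean above 0, from 1 array.

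Among signal peptidase genes, Sec11a (a catalytic subunit) was highest. It read 0.28 and 0.58 in fl26 and 0.07 and 0.85 in svb9, with means of 0.43 ± 0.20 (adjusted p = 0.544) and 0.46 ± 0.20 (0.98), and both old spots were marked. All 4 values were above 0, the second array being higher in each line, and its second probe gave 0.14 and 0.36, and -0.02 and 0.13. The accessory subunit Spcs1 read -0.08 and -0.30 in fl26, -0.15 and -0.24 in svb9, and 0.36 and -0.91 in old, the widest gap between the old arrays of any member. Sec11c and Spcs2 lay between -0.20 and 0.28 on every array that gave a value.

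Oligosaccharyltransferase was represented by Rpn1, Rpn2, Ddost and Magt1, the last a subunit of the complex form that serves difficult glycosylation sites. Magt1 gave the largest change with 2 old values. Its log2 ratio was 0.00 and -0.06 in fl26, -0.16 and -0.45 in svb9, and -0.97 and -0.91 in old wild type, so both old arrays lay below every young one and did not overlap with them. The old mean was -0.94 ± 0.09 (SE, n = 2), a level 1.91-fold lower than in young wild type, with an unadjusted p of 3.47e-05 and an adjusted p of 0.0599 (limma over all tested probes). The smallest adjusted p of any tested gene in this comparison was also 0.0599, and it missed the threshold. Benjamini-Hochberg adjustment can give several probes the same value, so this does not rank Magt1 first.

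Against the mean of both young transgenic groups, where only a fixed dye effect cancels, Magt1 differed by -0.77 ± 0.11 (1.70-fold lower in old, adjusted p = 0.365). fl26 minus svb9 was 0.27 ± 0.13 (adjusted p = 0.99995). With a normexp offset of 16 the old value was -1.29 (adjusted p = 0.0205), one of 2 members then called (the other was Canx, from 1 old array), where 1.75% of all probes were called. With only the old arrays in the fit it was -0.94 (adjusted p = 0.0405), against 0.188% of all probes. Over the other alternatives without a replicate block the adjusted p ran from 0.0511 to 0.307, and with extraction date as a term the value was -0.88 (adjusted p = 0.0932).

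Signal limits what the Magt1 value can bear. Its red signal was 83 on the first old array, against a background of 78, and was not well above background there, and it was 252 on the second old array. Its green signals were 975 and 1084. A second Magt1 probe, which the file lists under a clone name and the member rule does not match, read 0.11 and 0.49 in fl26, -0.03 on the first svb9 array and -0.09 on the first old array, with marked spots on the other arrays. On the first old array, then, the 2 probes of this gene gave -0.97 and -0.09.

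Of the other 3 subunits only Ddost had a value on both old arrays, and it did not share this pattern. Ddost, which anchors the catalytic subunit, read -0.25 and 0.17 in old and between -0.22 and -0.02 in the young lines. Rpn1 had no old value and read 0.09 and 0.31 in fl26 and -0.09 and -0.14 in svb9. Its fl26 minus svb9 difference of 0.32 ± 0.13 had an unadjusted p of 0.0504 and an adjusted p of 0.99995. The other Rpn1 probes did not share that difference. A second bright probe read 0.03 and 0.18 in fl26 and 0.00 and 0.22 in svb9. A dim probe read -0.26 and -0.13, and -0.13 and -0.07, in the same order. Rpn2 read 0.07 and 0.18, -0.02 and 0.23, and 0.32 on the second old array alone. Of the other genes of glycan addition and trimming, 16 were tested and 0 were called in any of the 3 groups. In fl26 the highest with 1 sign on both arrays were Dpagt1, which starts the lipid-linked glycan (mean 0.39 ± 0.15), and the OST subunit Krtcap2 (0.27 ± 0.14), and the lowest were the glucosyltransferase Alg5 (-0.48 ± 0.13) and Gfpt1 of hexosamine synthesis (-0.47 ± 0.14). In svb9 these were Ostc (0.29 ± 0.15), Dpm1 (0.05 ± 0.07), Stt3b and Dad1 (-0.44 ± 0.25). In old they were Ostc (0.46 ± 0.15), the folding sensor Uggt1 (0.18 ± 0.08), Dad1 (-0.52 ± 0.25) and the mannosidase Man1b1 (-0.51 ± 0.13). Their adjusted p ran from 0.251 to 0.988. Ostc and Dad1, 2 small OST subunits, thus had old means on opposite sides of 0. Of the paralogous catalytic subunits, Stt3b read -0.44 and -0.38 in fl26 and -0.61 and -0.34 in svb9 (mean -0.47 ± 0.10, adjusted p = 0.98), and Stt3a stayed between -0.23 and 0.26 on all 6 arrays.

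**Figure D3:**
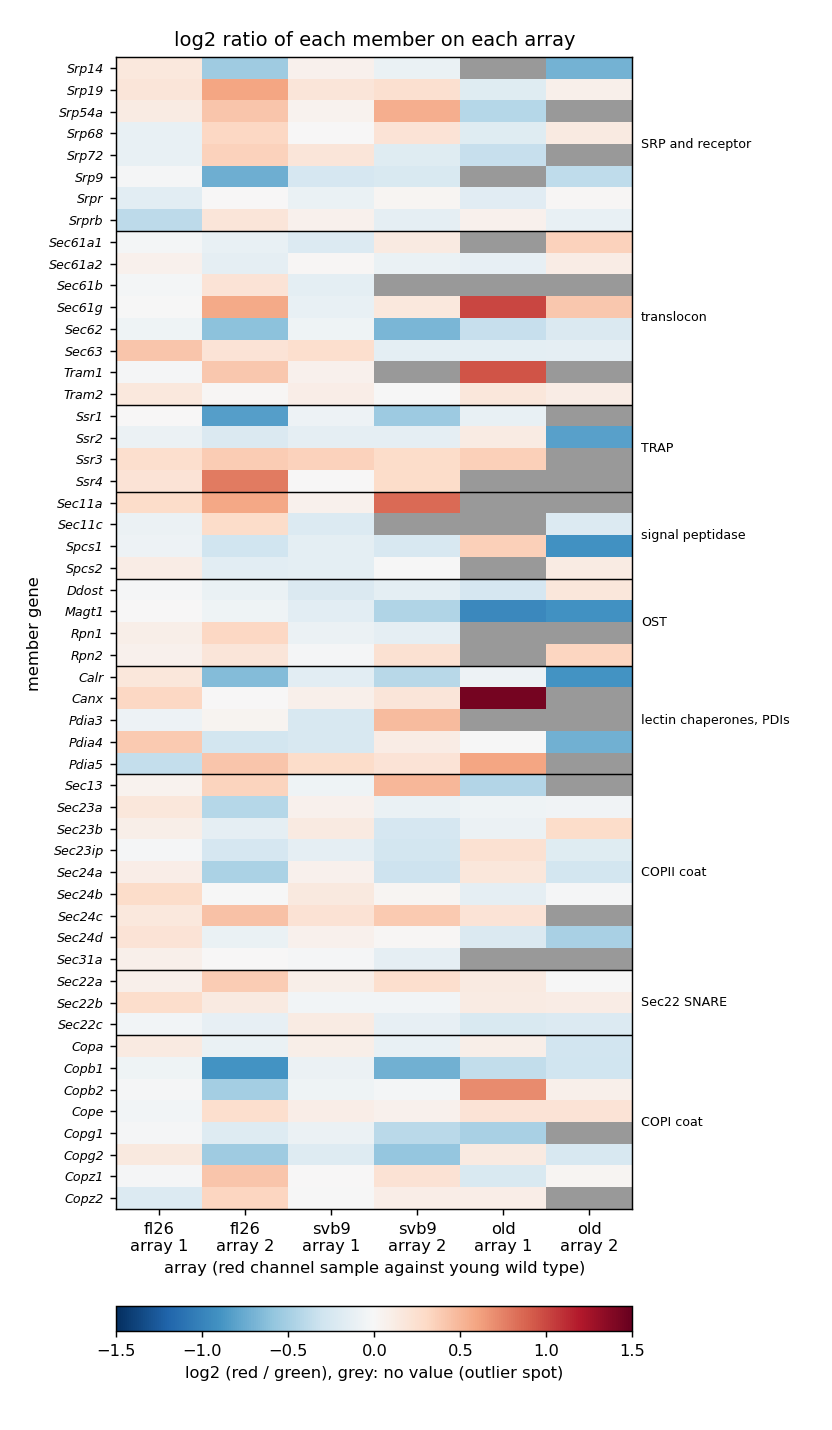
log2 ratio of the 53 members (rows, grouped by role) on the 6 arrays (columns), from blue for lower than young wild type to red for higher, with grey where the spot was left out. Magt1 is blue on both old arrays at -0.97 and -0.91, and most of the stronger colours in fl26 and svb9 fall on their second arrays.

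Calreticulin and calnexin are the paired lectin chaperones of the ER, and both promoters carry the long stress element shown above. Their values did not run together. Calr read 0.17 and -0.65 in fl26, -0.16 and -0.42 in svb9, and -0.08 and -0.90 in old wild type, lower on the second array of every group. Its means were -0.24 ± 0.25, -0.29 ± 0.25 and -0.49 ± 0.25 (adjusted p = 0.787, 0.98 and 0.51). A second Calr probe was below 0 on all 6 arrays, from -0.27 to -0.78, and was again lower on each second array.

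Canx read 0.31 and 0.00 in fl26, 0.08 and 0.18 in svb9, and 1.43 on the first old array, with a marked spot on the second. The fitted old value of 1.43 ± 0.15 (adjusted p = 0.0966) therefore rests on 1 array. With a strict filter, which asks for signal well above background on every array, Canx was the only member called, again from that array, where 2.1% of probes were called. With outlier spots kept the 2 old values were 0.99 and 0.27, and the other 2 Canx probes gave -0.04 and -0.13, and -0.22 and -0.17. The highest value of the set in old prostate was thus not seen by 2 of the 3 probes of that gene.

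Pdia3, the disulfide isomerase that partners these lectins, read -0.08 and 0.04 in fl26 and -0.24 and 0.47 in svb9, and had no old value. Pdia4 read 0.39 and -0.27, -0.24 and 0.11, and -0.01 and -0.72 (old mean -0.36 ± 0.22, adjusted p = 0.571). Pdia5 read -0.36 and 0.42 in fl26, 0.27 and 0.21 in svb9 and 0.59 on the first old array. Each of Pdia3, Pdia4 and Pdia5 changed sign between arrays of at least 1 group.

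**Figure D4:**
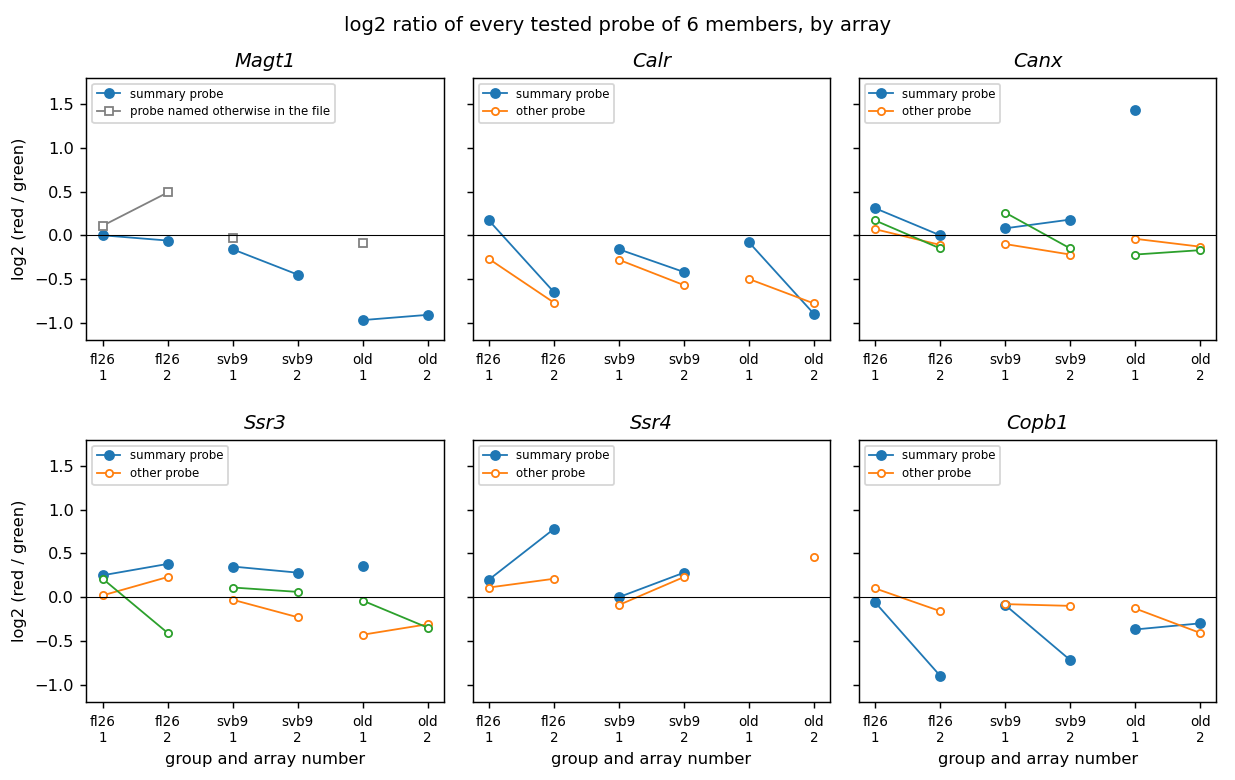
log2 ratio of every tested probe of Magt1, Calr, Canx, Ssr3, Ssr4 and Copb1 on each array, with filled circles for the probe that stands for the gene, open circles for its other probes and grey squares for the Magt1 probe that the member rule does not match. The Calr probes run in parallel, whereas the Canx probe that stands for the gene leaves the others on the first old array, at 1.43.

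Disagreement between probes was common in this set. Of the 30 genes with more than 1 tested probe, 12 had fl26 means of 1 sign over all probes and 18 had means of both signs. In svb9 17 had 1 sign and 12 both, and in old wild type, with 28 such genes, 11 had 1 sign and 14 both. Means that round to 0.00 are in neither count.

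COPII coats consist of Sec23 and Sec24, which select cargo, and the outer cage of Sec13 and Sec31. Sec24c was above 0 on every array that gave a value, with 0.16 and 0.44 in fl26, 0.22 and 0.39 in svb9 and 0.21 on the first old array (means 0.30 ± 0.10, adjusted p = 0.442, 0.31 ± 0.10, 0.98, and 0.21 ± 0.15, 0.635). Its paralogue Sec24d read 0.20 and -0.10, 0.06 and 0.02, and -0.22 and -0.49. Both old values of Sec24d were below all 4 young ones, although its red signal on the first old array, 97, was not well above background. The old mean was -0.35 ± 0.11 (adjusted p = 0.301) and the difference from the young transgenic groups -0.40 ± 0.13 (unadjusted p = 0.0207).

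The other COPII genes were closer to 0. Means of Sec23a, Sec23b, Sec24a and Sec24b lay between -0.19 and 0.14 in the 3 groups, and those of Sec23ip, a Sec23 partner, between -0.21 and 0.02. Sec13 read 0.05 and 0.33 in fl26, -0.07 and 0.50 in svb9 and -0.44 on the first old array, where its red signal was not well above background. Sec31a read 0.08 and 0.00 in fl26 and -0.02 and -0.14 in svb9 and had no old value. Over the role the medians were 0.04, -0.02 and -0.06.

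Sec22b is a SNARE that helps vesicles fuse between the ER and the Golgi, and Sec22a and Sec22c are related to it. Sec22b read 0.26 and 0.14 in fl26, -0.04 and -0.04 in svb9, and 0.12 and 0.11 in old. The 2 arrays of each group lay close together for this probe, and fl26 minus svb9 was 0.24 ± 0.10 (unadjusted p = 0.0552, adjusted p = 0.99995). A dimmer Sec22b probe did not show this, with 0.21 and -0.29, -0.06 and -0.20, and 0.03 and -0.75. With outlier spots kept the old mean of the brighter probe was -0.04. Sec22c read -0.23 and -0.21 in old (mean -0.22 ± 0.08, adjusted p = 0.409), with red signal not well above background on the first array. Its dimmer probes lay above 0 there, at 0.09 and 0.58, and at 0.06 and 0.03. Sec22a read 0.08 and 0.38 in fl26, and its dimmer tested probes 0.05 and -0.25, and 0.11 and 0.15.

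COPI coat members were Copa, Copb1, Copb2, Cope, the gamma genes Copg1 and Copg2 and the zeta genes Copz1 and Copz2. Copb1, the beta subunit, read -0.06 and -0.90 in fl26, -0.09 and -0.72 in svb9, and -0.37 and -0.30 in old wild type. All 6 values were below 0, with the second arrays of both young lines far lower than the first. The means were -0.48 ± 0.22 (adjusted p = 0.527), -0.40 ± 0.22 (0.98) and -0.34 ± 0.22 (0.603), and in the same arrays the dimmer second probe of Copb1 gave 0.10 and -0.16, -0.08 and -0.10, and -0.13 and -0.41.

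Copb2, the beta-prime subunit, read -0.02 and -0.51 in fl26, -0.06 and -0.03 in svb9, and 0.71 and 0.08 in old. The 2 old values were above the 4 young ones, although the second by little, and the old mean was 0.39 ± 0.17 (1.31-fold, adjusted p = 0.466), 0.55 ± 0.21 above the young transgenic groups (unadjusted p = 0.04, adjusted p = 0.636). With outlier spots kept the old values of Copb2 were 0.27 and -0.18, a mean of 0.04, and the second of them was then below 3 of the 4 young values. Both promoters match TGACGTGG, and the old means of Copb1 and Copb2 had opposite signs with outlier spots left out. Copg2 read 0.15 and -0.53 in fl26 and -0.19 and -0.58 in svb9 (mean -0.38 ± 0.19, adjusted p = 0.98), and Copg1 read -0.02 and -0.19, -0.09 and -0.41, and -0.49 on the first old array. Cope, Copa, Copz1 and Copz2 had means between -0.10 and 0.20 in every group.

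**Figure D5:**
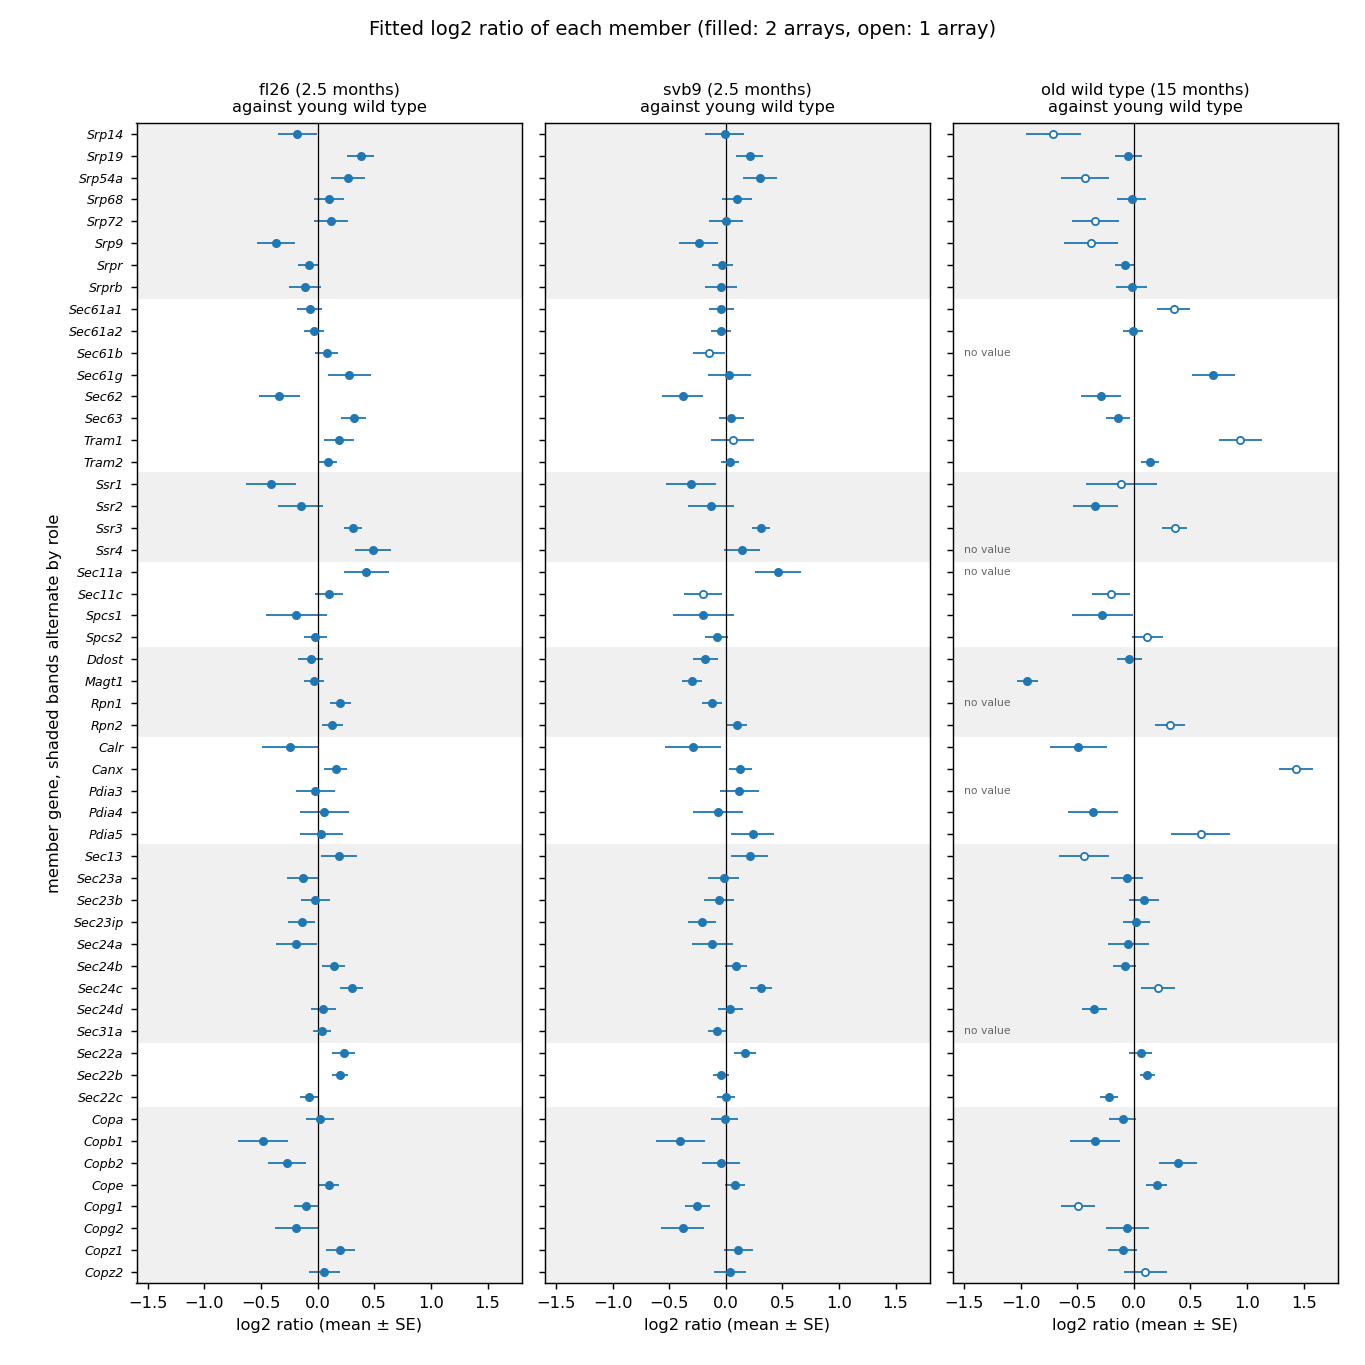
Mean log2 ratio against young wild type with its standard error (limma) for each member in fl26, svb9 and old wild type, grouped by role, with open circles where the value rests on 1 array. Standard errors cross 0 for many members, and Magt1 in old wild type, at -0.94, is the farthest from 0 among the filled circles.

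Several members were low on the second arrays of the young lines together. On those 2 arrays Copb1 read -0.90 and -0.72, Ssr1 -0.83 and -0.55, Sec62 -0.61 and -0.68, Calr -0.65 and -0.42 and Copg2 -0.53 and -0.58, while the first arrays gave between -0.19 and 0.17 for these 5 genes. Sec11a (0.58 and 0.85), Srp54a (0.42 and 0.55) and Sec24c (0.44 and 0.39) were high on those second arrays. This likeness was not particular to the members. Over all tested probes, Pearson's r between the second fl26 and svb9 arrays was 0.683. It was 0.259 between the 2 fl26 arrays and 0.17 between the 2 svb9 arrays. The second arrays also had the weaker red signal, with 17620 and 14617 probes well above background in red against 27150 and 27832 on the first, and its part in these values was not tested. Between fl26 and svb9 no member was called, and differences ran from -0.23 (Copb2) to 0.35 (Ssr4).

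The wider pathway was read through 4 lists outside the member rule. Of 24 ER chaperones and folding enzymes 0 were called in fl26, svb9 or old wild type, with medians of -0.01, -0.02 and -0.08. Hspa5, the master ER chaperone BiP, read 0.34 and 0.43 in fl26, -0.08 and 0.57 in svb9, and 1.01 on the second old array alone. Of the genes with 1 sign on both fl26 arrays, the highest were Manf, a secreted ER stress protein (0.29 and 0.52, mean 0.41 ± 0.13, adjusted p = 0.397), and the prolyl isomerase Fkbp2 (0.06 and 0.72). The lowest were the disulfide reductase Dnajc10 (-0.38 and -0.22, mean -0.30 ± 0.15, adjusted p = 0.574) and Erp44 (0.00 and -0.47), which retrieves proteins to the ER. In svb9 they were P4hb (0.06 and 0.49), Hsp90b1 (0.04 and 0.25), Creld2 (-0.32 and -0.23) and Hyou1 (-0.16 and -0.39), with adjusted p of 0.98 or higher. In old wild type Dnajc3 read 0.36 and 0.14 and Clgn 0.65 and 0.31, the latter with red signal not well above background on either array, and the lowest were Dnajb9 (-0.30 and -0.62) and Sdf2l1 (-0.15 and -0.36). The smallest adjusted p of these 4 was 0.243. Hsp90b1 and P4hb had no old value because both old spots were marked.

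Among 24 ER stress sensors, factors and degradation genes, 1 was called: Creb3l4, an ER-anchored transcription factor known from prostate epithelium. It read -1.71 and -1.54 in fl26, -0.22 and -0.63 in svb9, and -0.47 and -0.77 in old wild type, below 0 on all 6 arrays and lowest on both fl26 arrays, with red signal not well above background on the first old array. The fl26 mean was -1.62 ± 0.13 (adjusted p = 0.0317), and fl26 minus svb9 was -1.19 (adjusted p = 0.597). The call was lost in each of the 6 fits that left out 1 array (adjusted p from 0.0932 to 0.291) and in 5 of 11 other alternatives: without background correction (0.0621), with the software's ratios (0.08), with only the fl26 arrays (0.188), with a trend in the variance (0.941) and with median centring (0.99975). Its mean stayed between -1.77 and -1.34 in all of these fits. Edem1 read 0.43 and 0.69 in fl26 (mean 0.56 ± 0.17, adjusted p = 0.37) and Herpud1 0.44 and 0.45 (mean 0.44 ± 0.14, adjusted p = 0.403), both parts of ER-associated degradation. Derl3, another gene of that route, was below 0 on all 6 arrays, with -0.14 and -0.53 in fl26, -0.53 and -0.40 in svb9, and -0.33 and -0.39 in old (means -0.34 ± 0.11, -0.47 ± 0.11 and -0.36 ± 0.11, adjusted p = 0.379, 0.98 and 0.302). In svb9 Herpud1 read 0.05 and 0.59. In old Creb3l1, a relative of Creb3l4, read 0.56 and 0.26 (adjusted p = 0.263), Edem1 0.17 and 0.26, and Vcp, the ATPase that pulls proteins out for degradation, -0.46 and -0.30 (adjusted p = 0.245). Xbp1, the factor that drives many secretory genes, stayed between 0.01 and 0.23 in the young lines and read -0.26 on the first old array. Ddit3 and Atf4 means were between -0.27 and 0.18.

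Of the 24 coat GTPases, cargo receptors and KDEL receptors 0 were called, with medians of -0.06, -0.04 and 0.08. Tmed9, a cargo receptor, was below 0 on all 5 arrays with a value (-0.22 and -0.49 in fl26, -0.52 and -0.29 in svb9, -0.17 in old). The cargo receptor Lman1 read -0.28 and -0.42 in svb9 (mean -0.35 ± 0.09, adjusted p = 0.98) and 0.33 and 0.18 in old. Gbf1, which activates the COPI GTPase, read 0.35 and 0.22 in old (mean 0.28 ± 0.07, adjusted p = 0.249) and between 0.00 and 0.01 on the 4 young arrays. Kdelr1, which returns ER residents from the Golgi, read 0.28 and 0.44 in old (mean 0.36 ± 0.11, adjusted p = 0.323) and -0.30 and -0.16 in fl26. Others at the ends of the list were Tfg (0.12 and 0.24) and Tmed10 (0.02 and 0.05) in fl26, Sar1b (0.04 and 0.68) and Stx5a (0.13 and 0.27) in svb9, and Mcfd2 (-0.20 and -0.62) and Gosr2 (-0.11 and -0.52) in old, with adjusted p from 0.463 to 0.98.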

How the data were processed

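Red and green spot intensities came from the deposited scanner output, which per the file headers Agilent's Feature Extraction software made, with no normalization by the authors. The deposited log10 ratios, which that software background-corrected and dye-normalized per the file headers, served as an alternative. Deposited flags mark signal well above background, saturation and outliers. Left out were the 2256 control spots among 43790 and any spot with an outlier flag in either channel. In R 4.3.3 with limma 3.58.1, normexp (offset 50) removed background, loess adjusted ratios within an array, and spots of 1 probe were averaged. Tested were the 27858 probes well above background in 1 channel on both arrays of a group. Genes were named through RefSeq accessions or older symbols (GRCm38.p6). Array models named for older symbols (Grp58 for Pdia3, Tloc1 for Sec62, Spc18 for Sec11a) were read as their current genes.

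limma fitted 3 group means to all 6 arrays, with 2-sided tests and Benjamini-Hochberg adjustment over all tested probes at 0.05. A log2 ratio is red over green, so a value above 0 means more signal than in young wild type. Standard errors pool the spread of all 6 arrays, and a fit with a missing spot uses the remaining array. The fitting step was tested on simulated data. Alternatives changed the background correction, normalization, filter, spots kept, variance model, arrays fitted, blocking and the probe rule. Members, motifs and lists were chosen with earlier results of these data known. Values array by array are given for the 8 members of each comparison with the largest mean of 1 sign on all its arrays, for Magt1, Calr, Canx, Pdia3, Sec61b and oligosaccharyltransferase genes, and for members that a sentence sets beside these. Pathway genes named are those called and the highest and lowest of 1 sign. Hspa5, Xbp1, Atf4 and Stt3a were added after their values were seen. Array intensities carry no counting interval, and 2 arrays per group limit the precision.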

Additional observations from a re-analysis of the deposited data

How the results depend on the processing

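The member medians moved farthest under another normalization. With each array centred on its median in place of loess, member medians were 0.34 (fl26), 0.01 (svb9), -2.30 (old), 0.32 (fl26 minus svb9) and -2.41 (old minus young transgenic), and values turned sign for Sec61g (-2.96) and Copb2 (-2.75) in old, Copb2 (0.12) and Srp9 (0.25) between the lines, and Copb2 (-2.74), Copb1 (-2.02), Sec62 (-2.0) and Sec22b (-2.58) in old minus young transgenic. The old median was -0.05 without background correction, -0.09 with an offset of 16, -0.10 with the software's log ratios, -0.01 with a strict filter, -0.04 with outlier spots kept, -0.04 with extraction date as a term and -0.05 with the mean of all probes. Old minus young transgenic gave -0.01 (offset 16), -0.11 (software's ratios), 0.05 (strict filter), -0.02 (outlier spots kept) and -0.04 (date). The svb9 median was -0.04 (strict filter) and 0.01 (date), and that of fl26 minus svb9 0.07 (date). Leaving out 1 array at a time, medians ran from 0.00 to 0.05 in fl26, -0.03 to -0.01 in svb9, -0.08 to -0.06 in old, 0.02 to 0.12 between the lines and -0.05 to 0.02 in old minus young transgenic.

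No member was called in any of these leave-one-out fits. In old wild type 2 members were called with an offset of 16 (Canx and Magt1), 1 with a strict filter (Canx, where 2.1% of probes were called) and 1 with only the old arrays fitted (Magt1). Arrays of different groups share numbers 1 and 2, and the labels do not say that a number marks a shared pool or day. Per the file headers, the first fl26 and first svb9 arrays share a date of feature extraction. The second fl26 array shares its date with the first old array, and the second svb9 array with the second old array. Deviations of same-numbered arrays correlated at 0.609, 0.331 and 0.167 for the 3 pairs of groups. With the replicate block, 1 member was called in fl26 (Ssr4, 0.49, adjusted p = 0.0441, where 3.59% of probes were called) and 3 in old (Canx, Magt1 and Tram1, where 4.38% were), of which Canx and Tram1 rest on 1 old array and Magt1 had an adjusted p of 0.0061. It changed no call in the other 3 comparisons.

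Single members also turned sign elsewhere, and the cause was not tested. Srp9 between the lines was 0.23 with date as a term. With the mean of all probes Copg1 between the lines was 0.00, and in old minus young transgenic Copb1 was -0.05 and Sec22b -0.12. With the software's ratios Copb1 (-0.21) and Sec62 (-0.10) turned there, and with outlier spots kept Sec22b (-0.12) did. Leaving out 1 array, values between the lines ran from -0.47 to 0.02 for Copb2, -0.03 to 0.38 for Srp19, -0.01 to 0.30 for Copg1 and -0.48 to 0.22 for Srp9, and in old minus young transgenic from -0.11 to 0.31 for Copb1 and -0.08 to 0.22 for Sec62. Magt1 stayed below 0 in old wild type under every alternative run, from -2.92 to -0.81.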

Other observations

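Pdia6, a disulfide isomerase that the array lists under the older name Txndc7, falls outside the member rule, and its values are given here for comparison with the Pdia members. Its 3 probes read -0.39 and -0.63, -0.12 and -0.94, and 0.02 and -0.20 on the fl26 arrays. Red signal of the first probe was saturated on the first fl26 and svb9 arrays, so its -0.39 there is no exact ratio. In old wild type the first probe read -0.23 on the second array only, and the others read -0.34 and -0.77, and -0.30 and -0.33. All 5 old values were below 0, with means of -0.23 ± 0.22, -0.55 ± 0.21 and -0.31 ± 0.13 (limma, adjusted p = 0.731, 0.401 and 0.421). The left-out spot of the first probe on the first old array read 1.33 with outlier spots kept. None of the 3 probes was called in fl26 or svb9 either. Dnajc10, an ER disulfide reductase, read 1.05 on the first old array and had no value on the second.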
